A study of Mus musculus with 8 samples.

Results

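The Hox genes examined here are those of the Hoxa, Hoxb, Hoxc and Hoxd clusters with numbers from 1 to 13, measured in lumbar intervertebral discs of immunized and naive mice. They were taken by name: a probe set was used if the platform annotation gave it a single gene with such a symbol. This chose 48 of 45101 probe sets, which measured 33 of 18193 genes, namely 9 Hoxa, 9 Hoxb, 7 Hoxc and 8 Hoxd genes. Hoxb8 and Hoxd4 were named only by probe sets shared with a neighbour (Hoxb7 and Hoxd3) and are no members. Other Hox genes were not analysed here.

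The series holds 8 samples from female BALB/c mice, 5 immunized and 3 naive and of matching age. Immunized mice had received cartilage proteoglycan, 100 µg of protein together with 2 mg of the adjuvant DDA (dimethyldioctadecylammonium bromide), on days 0, 21 and 42. This treatment induces autoimmune inflammation of the spine and joints, so the immunized group differs from the naive group by antigen and adjuvant together. Each sample was RNA of 6 pooled lumbar discs from levels L1 to L6, so differences along the lumbar spine are not resolved. All replicates are called biological in the titles, but 2 sample numbers are joined in the description of immunized replicate 1 and likewise in that of naive replicate 3.

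Hox genes encode homeodomain transcription factors that give cells their position along the head-to-tail axis. Their order along a cluster follows the order of their anterior limits in the embryo, and genes at corresponding places in different clusters form paralogue groups. In the vertebral column the middle groups pattern the neck and thorax, the group 9 and 10 genes the lower thoracic and lumbar region, and the groups from 11 on the sacrum and tail. Connective tissue cells of the adult retain part of this expression. Hox proteins bind DNA with the homeodomain proteins PBX, MEIS and PKNOX (TALE cofactors), and Polycomb proteins keep the genes silent outside their domains.

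Values are log2 signals given as differences from the median of the 8 arrays for each probe set, so a difference of -1 is a halving. This centring removed the absolute level, so no gene can be called more abundant than another. A coarse level class could be read for each probe set's lowest array, from how finely the deposited numbers are spaced. The class was at least 8 (log2) for 10 of the 48 Hox probe sets, between 4 and 8 for 35 and below 4 for 3, against 31.7%, 57.4% and 10.9% of all probe sets. Of 14 genes of cartilage and disc matrix, 13 had a probe set of at least 8 on every array, as did 4 of 8 genes of the nucleus pulposus and notochord. Muscle (10 of 10 genes), bone (6 of 6), megakaryocyte (6 of 6) and erythroid genes (6 of 7) reached that class too, so RNA of tissues around the disc was present in the samples.

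Most Hox genes had a lower mean signal in discs of immunized mice, by small amounts. The difference was negative in 29 of the 33 genes, against 56.1% of all genes, with a median difference of -0.33 on the log2 scale and a range from -0.99 to 0.06. The median over all genes was -0.04. Limma's test, adjusted over all 18193 genes, called 4 Hox genes lower: Hoxa3, Hoxa5, Hoxc6 and Hoxd9. It called 0 Hox genes higher. Over all genes 4.68% were called lower and 4.46% higher, or 9.14% in either direction. Before adjustment, 17 of the 33 Hox genes were lower with a limma p under 0.05 and 0 higher, where 18.2% of all genes were lower and 12.9% higher. In 12 Hox genes every immunized sample lay below every naive sample, and in 0 every immunized sample lay above; over all genes these shares were 14.0% and 9.39%. In bulk RNA, fewer cells that express a gene and less of its RNA per cell cannot be told apart.

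**Figure D1:**
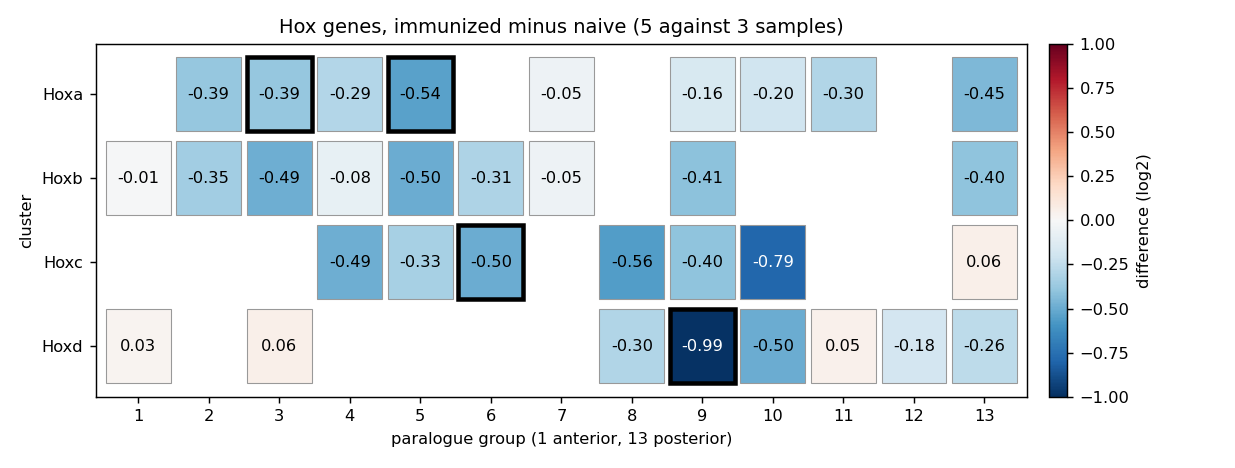
Log2 difference, immunized minus naive, for each Hox gene, with clusters in rows and paralogue groups 1 to 13 in columns; thick frames mark the 4 genes called by limma, and empty places hold no measured gene. Blue (lower) fills most of the grid, most deeply at Hoxd9 (-0.99) and Hoxc10 (-0.79), while Hoxb1, Hoxd1, Hoxd3, Hoxd11 and Hoxc13 lie between -0.01 and 0.06.

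The call of these 4 genes depended on which samples entered the fit. Without immunized replicate 2, limma called 14 Hox genes lower (9.40% of all genes were lower in that setting). Without immunized replicate 4 it called 1, Hoxc10, and without any other sample 0, the smallest adjusted p of a Hox gene then lying between 0.0554 (without immunized replicate 3) and 0.0951 (without naive replicate 2). Calls fell over all genes too, from 851 lower with all samples to 377 without immunized replicate 4. Without any of those other samples they lay between 4 (without naive replicate 2) and 344 (without immunized replicate 3). The number at an unadjusted p under 0.05 lay between 14 and 23 in these settings (23 without immunized replicate 2, against 20.0% of all genes) and was 17 after quantile normalization (14.6% of all genes), in which 0 Hox genes and 2.03% of all genes passed as lower after adjustment (smallest adjusted p = 0.0505, for Hoxc6). The differences of the 4 genes were negative in each of 19 settings. Their groups did not overlap, so leaving out samples could not have turned these differences positive.

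Hoxd9 had the largest difference of all 33 genes. It is a group 9 gene of the Hoxd cluster that acts in the posterior trunk and the limb bud. Its log2 values were 0.59, 0.54 and 0.65 in naive replicates 1 to 3 and -0.42, 0.35, -0.76, -0.35 and -0.81 in immunized replicates 1 to 5. The naive samples lay close together, and immunized replicate 2 was nearest to them without reaching them. Hoxd9 fell by 0.99 ± 0.24 (limma SE, n = 5 and 3; adjusted p = 0.0388), or 0.50-fold. The lowest array of its single probe set was in the class of at least 8.

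Hoxc6, a middle gene active in thoracic mesoderm, had the smallest adjusted p among the Hox genes. Its values were 0.33, 0.46 and 0.27 in naive samples and -0.15, 0.12, -0.30, -0.14 and -0.26 in immunized samples. The groups did not overlap, with immunized replicate 2 again the highest immunized sample. The difference was -0.50 ± 0.11 (SE; adjusted p = 0.0300 in limma), or 0.71-fold. All 3 of its probe sets had negative differences, of -0.59 ± 0.13, -0.52 ± 0.15 and -0.39 ± 0.09, and the first and last of these passed when probe sets were tested singly. The lowest array of each of the 3 was in the class between 4 and 8.

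Hoxa5, which patterns the cervicothoracic skeleton and the lung, had values of 0.43, 0.25 and 0.33 in naive samples and -0.28, 0.22, -0.35, -0.27 and -0.33 in immunized samples. Immunized replicate 2 stood next to naive replicate 2, while the other immunized samples lay within a narrow band well below. The difference was -0.54 ± 0.14 (adjusted p = 0.0438 in limma), or 0.69-fold. Its probe sets differed in size, with -0.78 ± 0.20 for that whose lowest array was at least 8 and -0.29 ± 0.09 for the other, and neither passed alone (adjusted p = 0.0529 and 0.0819 in limma).

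Hoxa3, an anterior gene of the pharyngeal and cervical region, had values of 0.26, 0.22 and 0.28 in naive samples and -0.12, 0.11, -0.34, -0.18 and -0.16 in immunized samples. The naive samples were almost equal and all immunized samples lay below them. The difference was -0.39 ± 0.10 (adjusted p = 0.0454 in limma), or 0.76-fold. Its 4 probe sets, each with a lowest array between 4 and 8, differed by -0.72 ± 0.14, -0.49 ± 0.13, -0.26 ± 0.16 and -0.09 ± 0.08. The first of these passed alone. That probe set is of a kind that can bind related transcripts (_s_at); without such probe sets Hoxa3 differed by -0.28 with an adjusted p of 0.0995. The annotated span of Hoxa3 in RefSeq also covers Hoxa4, Hoxa5 and Hoxa6, so transcripts of this stretch can overlap.

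Promoter sequences were looked up for the 4 called genes to show what stands before their starts. The RefSeq table (GRCm38.p6) held 3 of them, and Hoxc6 is not shown. They are the 250 bases before the annotated start, written 5′ to 3′ in the direction of the gene, for Hoxa3 (chr6:52213068-52213317, minus strand), Hoxa5 (chr6:52204588-52204837, minus strand) and Hoxd9 (chr2:74697513-74697762, plus strand). Capitals mark the homeodomain core motif.
Hoxa3: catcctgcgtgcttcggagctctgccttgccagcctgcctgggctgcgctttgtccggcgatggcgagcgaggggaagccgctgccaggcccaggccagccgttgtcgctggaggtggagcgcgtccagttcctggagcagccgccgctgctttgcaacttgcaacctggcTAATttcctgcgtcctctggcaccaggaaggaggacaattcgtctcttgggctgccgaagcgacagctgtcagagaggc
Hoxa5: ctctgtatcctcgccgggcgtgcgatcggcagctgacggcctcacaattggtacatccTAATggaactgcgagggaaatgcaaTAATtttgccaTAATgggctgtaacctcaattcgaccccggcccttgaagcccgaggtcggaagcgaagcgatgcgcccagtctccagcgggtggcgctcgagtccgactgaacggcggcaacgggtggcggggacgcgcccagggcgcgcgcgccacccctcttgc
Hoxd9: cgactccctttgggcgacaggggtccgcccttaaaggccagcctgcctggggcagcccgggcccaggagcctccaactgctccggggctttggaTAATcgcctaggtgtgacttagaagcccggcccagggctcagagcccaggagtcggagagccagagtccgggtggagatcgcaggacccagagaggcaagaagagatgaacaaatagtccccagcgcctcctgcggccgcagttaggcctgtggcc

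The motif in capitals, TAAT on either strand, occurred once in the Hoxa3 and Hoxd9 sequences and 3 times in that of Hoxa5, and 54.9% of all 32851 promoters in the table hold it. Of 21 promoters of 19 measured Hox genes, 16 held it. A GC box (GGGCGG, either strand) was found in that of Hoxd9 and in 32.7% of all promoters. The PBX-HOX motif TGATNNAT, the CDX motif TTTATG and the TATA motif TATAAA had no match in the 3 sequences. They occur in 7.68%, 10.8% and 12.4% of all promoters on either strand. CG dinucleotides numbered 18, 28 and 13 in the sequences of Hoxa3, Hoxa5 and Hoxd9, against a median of 6 over all promoters and 13 over those of measured Hox genes. These matches describe letters only and were not tested against the expression values.

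In the Hoxa cluster all 9 genes had a negative difference, with a median of -0.30 (range -0.54 to -0.05). In 5 of them every immunized sample lay below every naive sample, against 14.0% of all genes. Besides Hoxa3 and Hoxa5, Hoxa2, a hindbrain and pharyngeal arch regulator, was taken by the naming rule. Its values were 0.34, 0.17 and 0.17 in naive samples and -0.16, 0.13, -0.21, -0.13 and -0.47 in immunized samples. The groups were separate by a small margin, and the difference of -0.39 ± 0.13 did not pass in limma (adjusted p = 0.0766). Hoxa4, a gene of cervical identity, and Hoxa13, the most posterior of the cluster, were also separate between groups, by -0.29 ± 0.09 and -0.45 ± 0.14, without passing (adjusted p = 0.0790 and 0.0770). Hoxa13 stood highest in naive replicate 1 (0.64), the other naive samples being at 0.06 and 0.19. The posterior genes Hoxa9, Hoxa10 and Hoxa11 differed by -0.16, -0.20 and -0.30, and in each of them the groups overlapped. Hoxa7 differed by -0.05, its highest sample being immunized replicate 2 (0.42) and its lowest immunized replicate 5 (-0.25).

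In the Hoxb cluster all 9 genes again had a negative difference, with a median of -0.35 (range -0.50 to -0.01), and 0 passed in limma (4 lower and 0 higher, unadjusted). Hoxb5, a regulator of thoracic patterning and of enteric neurons, had values of 0.57, 0.20 and 0.13 in naive samples and -0.12, 0.09, -0.62, -0.27 and -0.09 in immunized samples. It was the only gene of this cluster without overlap, and differed by -0.50 ± 0.17 (adjusted p = 0.0841 in limma). Hoxb3 (0.83, 0.22 and 0.05 in naive; -0.17, 0.08, -0.18, -0.33 and -0.04 in immunized) and Hoxb13 (0.55, 0.24 and 0.07; -0.26, 0.11, -0.07, -0.18 and -0.18), the most posterior gene of its cluster, were highest in naive replicate 1. In both genes immunized replicate 2 lay above naive replicate 3. Their differences were -0.49 ± 0.17 and -0.40 ± 0.13 (adjusted p = 0.0931 and 0.0740 in limma). Without naive replicate 1 they were -0.27 and -0.27. Hoxb6 and Hoxb9 differed by -0.31 ± 0.18 and -0.41 ± 0.19 with overlapping groups; Hoxb6 was highest of all in immunized replicate 2 (0.47), and Hoxb9 stood at 0.66 in naive replicate 3 but at -0.02 and 0.04 in the other naive samples. Hoxb1, Hoxb4 and Hoxb7 differed by -0.01, -0.08 and -0.05.

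In the Hoxc cluster 6 of 7 genes had a negative difference. The median of the cluster, -0.49 (range -0.79 to 0.06), was the lowest among the clusters. In 4 genes every immunized sample lay below every naive sample, against 14.0% of all genes. Hoxc10, a gene of the lumbar region, had values of 0.32, 0.45 and 0.39 in naive samples and -0.69, -0.01, -0.93, 0.01 and -0.41 in immunized samples. All immunized samples were below the naive ones, but they were spread over a range several times that of the naive samples. It differed by -0.79 ± 0.21, or 0.58-fold, and fell just short of the threshold in limma (adjusted p = 0.0508). Hoxc8, a gene of the thoracic region, had values of 0.20, 0.41 and 0.31 in naive samples and -0.19, 0.18, -0.54, -0.18 and -0.53 in immunized samples. It differed by -0.56 ± 0.16 (adjusted p = 0.0608 in limma), with immunized replicate 2 next to naive replicate 1. Hoxc4, the most anterior Hoxc gene, was 0.25, 0.40 and 0.23 in naive samples and -0.02, 0.02, -0.59, -0.06 and -0.31 in immunized samples, a difference of -0.49 ± 0.14 (adjusted p = 0.0624 in limma) with no overlap. Hoxc9 differed by -0.40 ± 0.13 and overlapped only through immunized replicate 2 (0.16), which lay above naive replicate 1 (0.10). Hoxc13, known from hair follicles and nails, was the member of this cluster with a positive difference (0.06 ± 0.12).

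In the Hoxd cluster the genes diverged most. Of 8 genes 5 had a negative and 3 a positive difference, with a median of -0.22 (range -0.99 to 0.06). Around Hoxd9, its neighbours Hoxd8 and Hoxd10 differed by -0.30 ± 0.19 and -0.50 ± 0.28. Hoxd10, which patterns lumbar motor neurons and the hindlimb, had values of -0.01, 0.56 and 0.47 in naive samples and 0.01, 0.61, -0.44, -0.23 and -0.73 in immunized samples. The groups overlapped, with immunized replicate 2 the highest of all samples, and the gene did not pass (adjusted p = 0.250 in limma). Hoxd1, Hoxd3 and Hoxd11 differed by 0.03 ± 0.11, 0.06 ± 0.08 and 0.05 ± 0.07. Hoxd1 and Hoxd11, with Hoxb1, were the 3 genes measured only by probe sets whose lowest array was below 4, where a change can be hidden by background. Hoxd12 differed by -0.18 ± 0.16, which rested on naive replicate 1 (0.69), since the other 7 samples lay between -0.04 and 0.07.

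Hoxd13, the most posterior Hoxd gene and a regulator of digits, was measured by probe sets that did not behave alike. The first gave 0.61, 0.49 and 0.45 in naive samples and 0.02, -0.02, -0.10, -0.21 and -0.15 in immunized samples, a difference of -0.61 ± 0.09 that passed among single probe sets (adjusted p = 0.0138 in limma). The second gave -0.02, -0.04 and 0.02 in naive samples and -0.07, 0.17, 0.23, 0.20 and -0.17 in immunized samples, a difference of 0.08 ± 0.11. Their mean differed by -0.26 ± 0.08 (adjusted p = 0.0627). Tested singly, 6 Hox probe sets passed in limma, all of them lower, and over all probe sets 2.89% were called lower and 3.3% higher. They belonged to Hoxa3, Hoxa4, Hoxc6 (2 of its 3), Hoxd9 and Hoxd13. At an unadjusted p under 0.05, 23 of the 48 were lower and 0 higher, where 15.1% of all probe sets were lower and 12.5% higher. Among the 11 Hox genes with several probe sets, the differences within a gene spread by 0.03 (Hoxa9 and Hoxd8) to 0.92 (Hoxc5), and 0 genes had probe sets past an unadjusted p of 0.05 in both directions.

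**Figure D2:**
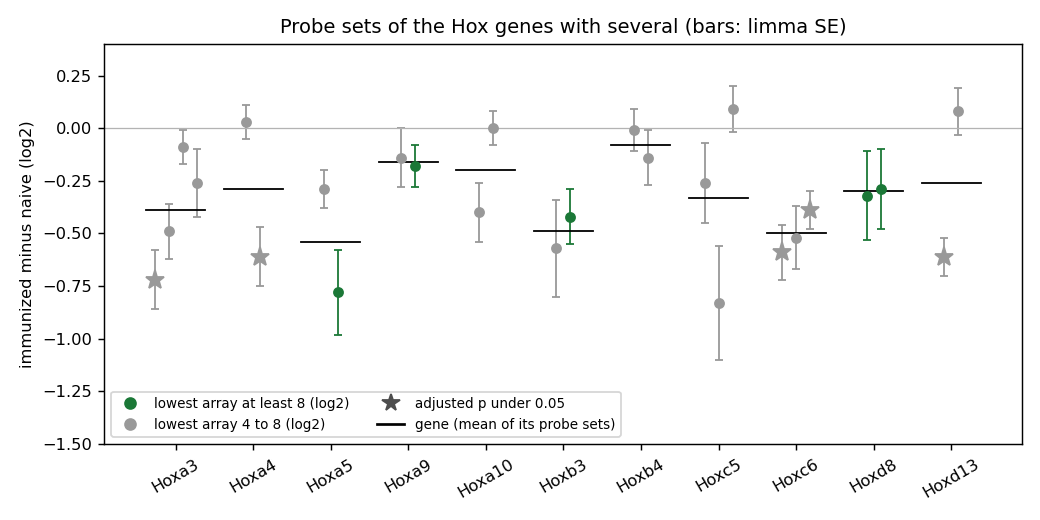
Log2 difference, immunized minus naive, of every probe set of the 11 Hox genes measured by more than 1, with limma standard errors; stars passed the adjusted threshold, green marks a lowest array of at least 8 and black lines give the gene's mean. The points of Hoxc6, Hoxb3 and Hoxd8 lie close together, while Hoxa4 and Hoxd13 each combine a lower probe set that passed with another near 0. The lowest probe set of Hoxc5 (-0.83 ± 0.27) did not pass, and another of that gene lies near 0.

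Set out by paralogue group, the lower values were not limited to a stretch of the axis. The median difference was -0.35 for the 7 genes of groups 1 to 3, -0.32 for the 12 of groups 4 to 8 and -0.35 for the 14 of groups 9 to 13. All 12 genes of groups 4 to 8 had a negative difference, as had 5 of 7 in groups 1 to 3 and 12 of 14 in groups 9 to 13. Within groups the paralogues were unequal. The group 9 genes Hoxa9, Hoxb9, Hoxc9 and Hoxd9 differed by -0.16, -0.41, -0.40 and -0.99, and the group 10 genes Hoxa10, Hoxc10 and Hoxd10 by -0.20, -0.79 and -0.50. The group 5 genes Hoxa5, Hoxb5 and Hoxc5 lay closer together (-0.54, -0.50 and -0.33), and the group 7 genes Hoxa7 and Hoxb7 were both at -0.05. Differences between clusters or groups were not tested.

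**Figure D3:**
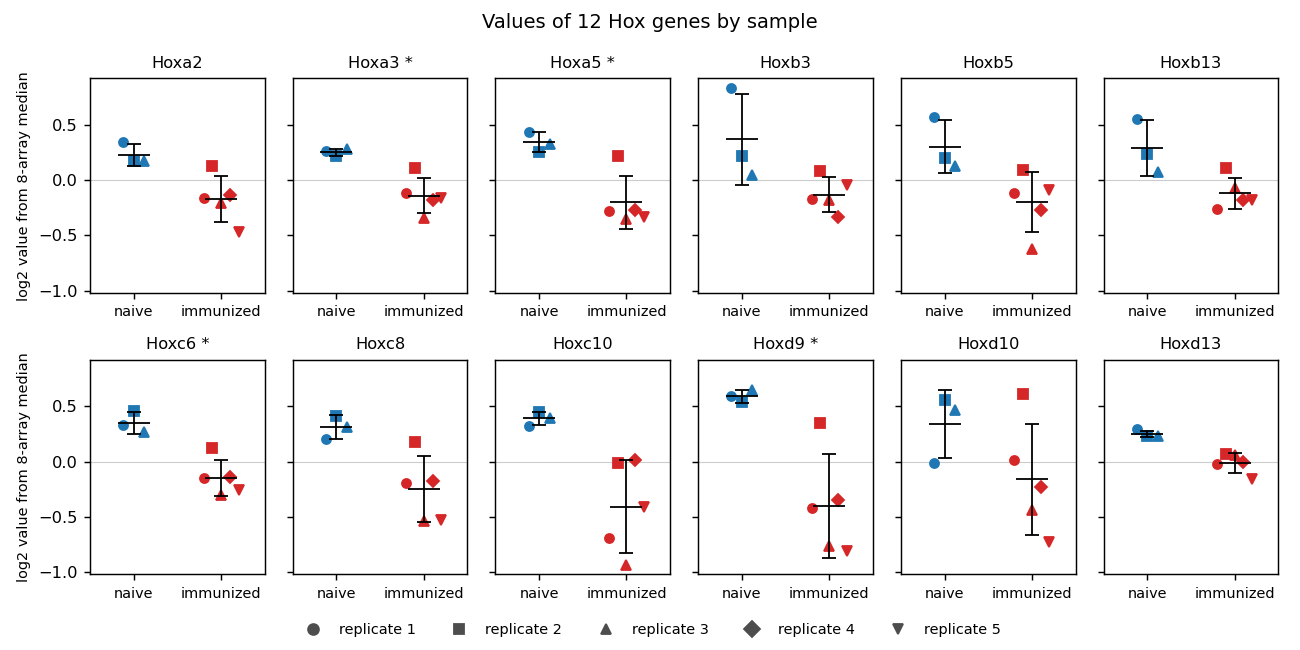
Log2 values of the 12 Hox genes taken by the naming rule in each of 3 naive (blue) and 5 immunized (red) samples, with the mean and SD in black; marker shapes give the replicate number and stars the genes called by limma. Immunized replicate 2 (red square) is the uppermost immunized point in most panels, and the naive points of Hoxb3, Hoxb5 and Hoxb13 are spread by naive replicate 1.

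The Hox genes ranked the immunized samples in much the same way. Immunized replicate 2 was the highest immunized sample in 23 of 33 genes and the lowest in 0, while immunized replicates 3 and 5 were the lowest in 15 and 10. Averaged over all 33 genes, naive replicates 1 to 3 stood at 0.22, 0.21 and 0.19 and immunized replicates 1 to 5 at -0.12, 0.15, -0.24, -0.13 and -0.22. The groups did not overlap, although immunized replicate 2 lay nearer to the naive samples than to the other immunized ones. Setting that sample aside, the other 4 immunized samples were all below every naive sample in 19 of 33 Hox genes and in 20.1% of all genes. The highest naive value was in replicates 1, 2 and 3 in 12, 10 and 11 genes. The spread was larger among immunized samples for most members, the SD among naive samples being the greater in 7 of 33 genes.

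Marker means of other cells also shifted between the groups. The naive Hox means were nearly equal (0.22, 0.21 and 0.19), so their order was not compared with that of the markers. Among immunized samples the macrophage mean was highest in replicate 1 (0.51), where the Hox mean was -0.12. The means of 14 cartilage and disc genes were 0.45, 0.69 and 0.73 in naive samples and -0.50, 0.29, -0.99, -0.25 and -0.54 in immunized samples, so immunized replicate 2 was again highest and replicate 3 lowest. Of these 14 genes 6 fell in limma, and their median difference was -0.89. Over all genes 4.68% fell and 4.46% rose. The means of 8 nucleus pulposus and notochord genes lay between 0.39 and 0.54 in naive samples and between -0.84 and 0.42 in immunized samples, the highest being immunized replicate 2; the notochord genes T and Noto were not measured. The means of 10 macrophage genes, of which 6 rose, lay between -0.87 and -0.46 in naive samples and between -0.07 (replicate 2) and 0.51 in immunized samples. Those of 9 neutrophil genes, of which 3 rose, lay between -0.71 and -0.10 and between -0.11 and 0.54. Plasma cell genes (3 of 7 rose) had means from -0.82 to -0.24 and from 0.11 to 0.23. The part of these cells in the lower Hox signal was not tested.

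Markers of marrow, muscle and other tissues were averaged in the same way, and the means of marrow progenitors, bone and keratinocytes did not overlap between groups. Erythroid means lay between -0.34 and 0.40 in naive and between -0.32 and 0.71 in immunized samples, and megakaryocyte means between -0.33 and 0.37 and between -0.24 and 0.90. Among immunized samples both were highest in replicates 3 and 5, which were lowest in Hox signal. Naive replicate 1 had the highest naive mean of both lists (0.40 and 0.37). The naive Hox means were nearly equal (0.22, 0.21 and 0.19). Marrow progenitor means (7 genes, 0 called in limma, 2 higher unadjusted) lay between -0.23 and -0.11 and between -0.07 and 0.22. Over all genes 4.68% were called lower and 4.46% higher (18.2% and 12.9%, unadjusted). Skeletal muscle means (10 genes, 0 called, 0 at an unadjusted p under 0.05) lay between -0.55 and 0.27 and between -0.33 and 0.27. Tendon and fibrous tissue (9 genes, 0 called in limma, 1 lower unadjusted) had means from 0.02 to 0.21 in naive samples and from -0.67 (replicate 3) to 0.19 in immunized samples. Bone means (6 genes, Alpl lower) lay between 0.20 and 0.39 and between -0.42 and 0.03. Keratinocyte and epithelial genes (8 genes, 3 lower) had means from 0.36 to 0.49 and from -0.52 to 0.13. B and T cell (8 genes, Cd3g higher), endothelial (5 genes), adipocyte (3 genes) and Schwann cell and neuron genes (6 genes) had overlapping means, and their other genes did not pass in limma. The part of these tissues in the result was not tested.

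**Figure D4:**
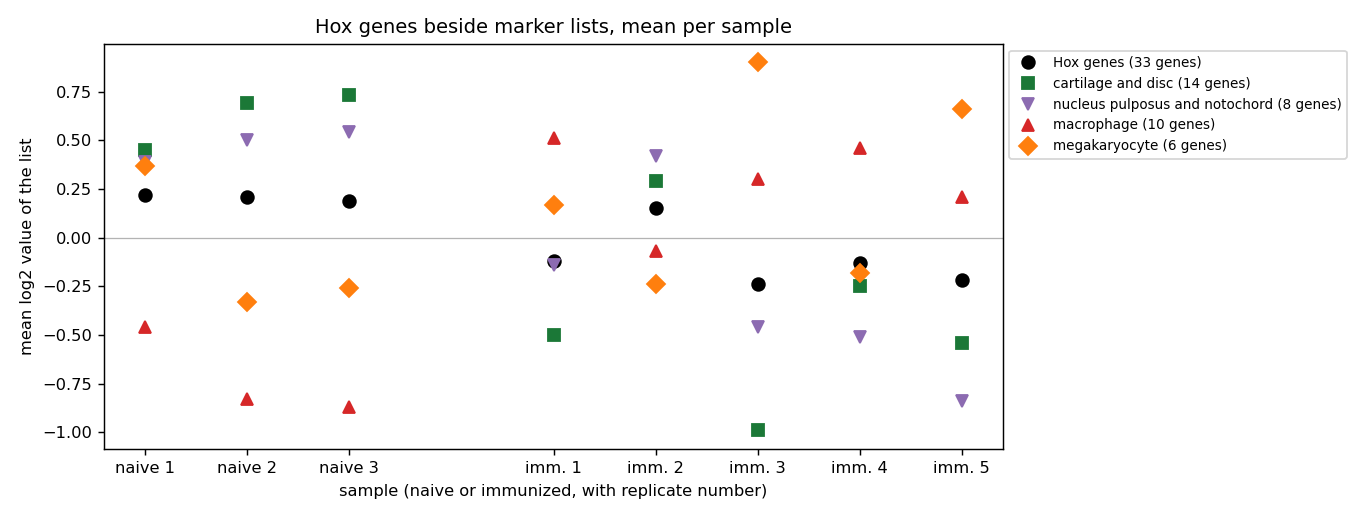
Mean log2 value per sample of the 33 Hox genes and of 4 marker lists, for 3 naive and 5 immunized (imm.) samples. Among immunized samples the Hox mean follows the order of the cartilage genes except between immunized 1 and 4 (Hox -0.12 and -0.13). In both lists immunized 2 (0.15 and 0.29) is the highest of them and immunized 3 (-0.24 and -0.99) the lowest. The macrophage mean is lowest in immunized 2 (-0.07) among them.

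Among the partners of Hox proteins, 2 of 8 TALE cofactor genes fell and 0 rose in limma (4 lower and 0 higher, unadjusted), with a median of -0.21. Over all genes 4.68% fell and 4.46% rose (18.2% lower and 12.9% higher, unadjusted). Pknox2 was 0.31, 0.67 and 0.55 in naive samples and -0.16, 0.14, -0.55, -0.14 and -0.31 in immunized samples, a difference of -0.71 ± 0.15 (adjusted p = 0.0300) with no overlap. Pbx4 differed by -0.56 ± 0.12 (adjusted p = 0.0322). Meis1 (0.08 ± 0.09) and Meis2 (-0.25 ± 0.15) did not pass (adjusted p = 0.549 and 0.30). Of 17 Polycomb genes 4 fell and 0 rose (6 lower and 1 higher, unadjusted), with a median of -0.06. These were Pcgf2 (-0.52 ± 0.11), Ring1 (-0.46 ± 0.12), Phc1 (-0.42 ± 0.10) and Phc3 (-0.29 ± 0.07), which encode subunits of Polycomb repressive complexes that modify histone H2A. Other genes of these complexes did not pass, among them Bmi1 (0.16 ± 0.10, adjusted p = 0.303) and Rnf2 (0.05 ± 0.10, adjusted p = 0.767). The methyltransferase gene Ezh2 (0.38 ± 0.24) did not pass (adjusted p = 0.312) and was highest in immunized replicates 3 and 5 (0.68 and 0.62). Of 9 Trithorax and H3K27 demethylase genes 0 passed in limma (1 lower and 1 higher, unadjusted).

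Of 19 genes that set Hox domains in the embryo, including Cdx genes, activin and Gdf11 signalling and retinoic acid metabolism, 1 rose and 1 fell in limma (2 higher and 6 lower, unadjusted), with a median of -0.10. These calls were 5.26% each way, near the shares over all genes (4.46% higher and 4.68% lower). Unadjusted, 12.9% of all genes were higher and 18.2% lower. The retinoic acid receptor gene Rarg was 0.79, 0.68 and 0.81 in naive samples and -0.37, 0.20, -0.28, -0.31 and -0.85 in immunized samples. It fell by 1.08 ± 0.19 (adjusted p = 0.0214) with no overlap. Tgfbr1, a receptor for TGF-beta and Gdf11, rose by 0.85 ± 0.19 (adjusted p = 0.0353), its naive values of -1.08, -0.77 and -0.14 being widely spread.

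Transcription factors outside the Hox clusters that act in vertebrae, discs, tendons or limbs were listed too, with Sox9 also among the cartilage markers. Of 22 such genes 3 fell and 0 rose in limma (9 lower and 0 higher, unadjusted), and the median was -0.32. Over all genes 4.68% fell and 4.46% rose (18.2% lower and 12.9% higher, unadjusted). Nkx3-2, a cartilage factor of the sclerotome, had values of 0.74, 0.36 and 0.77 in naive samples and -0.36, 0.36, -0.67, -0.85 and -0.84 in immunized samples. Immunized replicate 2 equalled naive replicate 2 to 2 decimals, and the difference was -1.10 ± 0.27 (adjusted p = 0.0399). Sox9, the master regulator of chondrocytes, fell by 0.83 ± 0.19 (adjusted p = 0.0336) and Foxc2 fell by 0.66 ± 0.14 (adjusted p = 0.0288). The sclerotome genes Pax1 (-0.63 ± 0.18) and Pax9 (-0.29 ± 0.15) did not pass (adjusted p = 0.0596 and 0.229 in limma). Of 13 other genes at or near the clusters or of related homeobox families, Dlx5, a factor of bone and hypertrophic cartilage, fell (-0.97 ± 0.15, adjusted p = 0.0165), and the median was -0.05. The values of these lists and of the Hox genes come from 1 fit over all genes, and differences between lists were not tested.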

How the data were processed

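Total RNA of 8 disc samples was hybridized to Affymetrix arrays as biotinylated cRNA made from 2 to 5 µg of RNA, per the labels. The deposited values are log2 signals, which the authors made with RMA (robust multi-array averaging) according to what is named per the submitters' processing notes, with no version. The deposited values have a median of 0 over the arrays in every probe set (to within 5.0e-07). Precision is limited by having only 8 arrays.

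Gene names come from the platform annotation, checked against RefSeq symbols (GRCm38.p6), for which 162 symbols had no match. A gene is the mean of the probe sets that name it alone. Of 45101 probe sets, 64 controls were left out. Immunized samples were compared with naive samples with limma 3.58.1 under R 4.3.3 (two-sided moderated test by lmFit and eBayes without covariates), adjusted by Benjamini-Hochberg over all genes or all probe sets, with a threshold of 0.05. The code was tested on simulated data. Over all genes 812 were higher and 851 lower (48.8% of calls higher; 59.5% after quantile normalization and 55.0% with arrays centred).

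Named Hox genes are those called, then those of smallest p up to 3 per cluster. Members, lists and the naming rule were chosen with earlier results of these data known. From each other list up to 4 called genes are named, with Meis1, Meis2, Ezh2, Pax1, Pax9 and Nkx3-2. Other Hox genes, Alpl, Cd3g, Bmi1 and Rnf2 are named after their values were seen. Alternatives changed the normalization, probe sets, variance model, weights, threshold and samples. The labels do not say that replicate numbers pair the samples, and the main fit did not use these numbers.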

Additional observations from a re-analysis of the deposited data

Results flagged for a closer look

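In 112 sets of values (genes, probe sets and list means), the highest and lowest of the 5 immunized samples were tested for standing apart by Dixon's ratio, which chance exceeds in about 1 in 20 groups, and 7 sets did. In 6 of them the sample was immunized replicate 2, and these sets are not independent. It stood at 0.22 in Hoxa5, where the other immunized samples lay between -0.35 and -0.27, and at 0.35 in the Hoxa5 probe set whose lowest array was at least 8 (others -0.60 to -0.35). In the mean of the Hoxb genes it stood at 0.13 (others -0.21 to -0.12). In a probe set of Hoxb4 it stood at 0.20 (others -0.07 to 0.01) and in that of Hoxb5os at 0.23 (others -0.37 to -0.23). In the Polycomb gene Phc1 it stood at 0.10 (others -0.17 to -0.10). Immunized replicate 3 stood apart in the Polycomb gene Ring1, at -0.46 (others -0.10 to 0.03).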

How the results depend on the processing

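The number of Hox genes called lower was 4, and that of Hox probe sets 6. With thresholds of 0.10 and 0.01 the genes were 15 and 0, the probe sets 19 and 0, all higher genes 1631 and 41 and all lower genes 2152 and 13. With array weights, which gave immunized replicate 1 a weight of 3.98 and naive replicate 1 a weight of 0.27, these were 18, 19, 2495 and 3405. After quantile normalization they were 0, 2, 541 and 369. Without both samples with joined numbers they were 0, 0, 0 and 0 in limma (14 Hox genes lower and 0 higher, unadjusted; over all genes 2173 and 1621). Leaving out a sample at a time gave 0 to 14 Hox genes, 0 to 16 Hox probe sets, 17 to 1293 higher and 4 to 1710 lower genes. The cause of these shifts was not tested. In 7 of 21 settings all 4 called genes kept their call, and in 12 all lost it. The 7 include the threshold of 0.10, at which a call cannot be lost. Of the named genes 0 changed direction, which leaving out samples could not bring about in genes without overlap.

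With the replicate number as a block, over replicates 1 to 3 of both groups, 0 Hox genes, 0 Hox probe sets, 6 higher and 1 lower genes passed in limma (12 Hox genes lower and 0 higher, unadjusted; over all genes 2057 and 1845). The same samples without the block, a setting added after the data were seen, gave 0, 0, 10 and 2. Same-numbered samples correlated at -0.05, 0.24 and -0.10 in their deviations from the group means, and unlike-numbered samples at -0.38 to 0.33. With so few samples this cannot show whether same-numbered samples share a batch. The other setting added was the use of each gene's probe sets of highest level class. The choice of the probe set with the highest mean could not be tried on centred values and was not run.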

Other observations

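Transcripts within the clusters that are not Hox genes themselves, and probe sets shared by neighbouring Hox genes, were looked at after the values of the members were known. The probe set annotated to Hoxb5os, which runs opposite to Hoxb5, gave 0.67, 0.65 and 0.70 in naive samples and -0.23, 0.23, -0.37, -0.23 and -0.26 in immunized samples. The groups did not overlap, and the difference of -0.85 ± 0.13 passed among single probe sets in limma (adjusted p = 0.0166). Hoxb5 itself differed by -0.50 ± 0.17 on its only probe set and did not pass there (adjusted p = 0.0989). The probe sets of Hoxd3os1 differed by -0.32 ± 0.21 and -0.09 ± 0.12 and those of Hoxa11os by -0.31 ± 0.13 and -0.20 ± 0.13, and none of these 4 passed in limma (1 lower, unadjusted). The probe sets shared by Hoxd4 and Hoxd3 differed by -0.23 ± 0.20 and -0.14 ± 0.16, and that shared by Hoxb8 and Hoxb7 by -0.07 ± 0.19. In all 3 of these the groups overlapped.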
